A study of Mus musculus with 12 samples.

Results

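Crabp1, Syt9, Peg10, Art3 and Gcg are 5 genes of the CA1 transcriptome selected on their FPKM values, because their transcripts were higher in Tip60 cKO mice than in control mice in these same libraries. They are 5 of 7259 genes left in the expression table after genes with unusable values were set aside. The deposited table held 10245 gene symbols and does not cover all genes. Of 11 CA1 pyramidal neuron markers examined below, for example, 9 were not among the 7259. A gene missing here is therefore not shown to be silent, and ranks and family counts hold within the genes present. The values that chose them are the values described here, so their difference between genotypes is given as a description without a test. RNA-Seq was performed on CA1, the hippocampal field of excitatory pyramidal neurons, from 6 Tip60 cKO and 6 control mice, with 1 library per mouse. Tip60 cKO mice were Tip60 f/f males on C57BL/6N that carried CaMKCreERT2, a Cre recombinase active in excitatory forebrain neurons only after tamoxifen. Control mice were Tip60 f/f littermates without Cre, also given tamoxifen, so that an effect of Cre itself and of Tip60 loss cannot be told apart. All mice were injected at 2 months of age and killed 10 days after the last injection, and the dorsal CA1 pieces of both hemispheres were combined for each mouse. Glia and inhibitory neurons, which do not use the Camk2a promoter, keep Tip60 in this model. In such bulk tissue more cells of a type and more RNA per cell cannot be told apart.

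TIP60, the product of Kat5, acetylates histones and other proteins as the catalytic subunit of a chromatin complex. The targeted gene was not analysed here, and the genotypes therefore rest on the labels. The 5 genes do not share a pathway. Crabp1 encodes a cytoplasmic protein that binds retinoic acid, the vitamin A metabolite that acts through nuclear receptors, and is best known from the embryo. Syt9 encodes a synaptotagmin, a vesicle protein that senses calcium and triggers secretion. Peg10 is an imprinted gene, expressed from the paternal copy, that arose from a retrotransposon and is needed for the placenta. Art3 encodes a member of the family of mono-ADP-ribosyltransferases anchored at the cell surface. Gcg encodes preproglucagon, the precursor of glucagon and of the glucagon-like peptides, which is made in pancreatic alpha cells, in the gut and in a small group of brainstem neurons.

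Levels are in FPKM, fragments per kilobase of transcript scaled to the depth of the library, which allows genes to be set side by side per length. The depth, estimated from the step of 1 read in each library, was 32.0 to 38.2 M reads (M, mega), with 33.9 ± 1.38 M in Tip60 cKO mice and 35.7 ± 2.1 M in controls (SD, n = 6 each; exact two-sided permutation p = 0.11). Of all genes left, 2417 with a mean of at least 0.5 FPKM over the 12 libraries were tested with limma on log2(FPKM + 1). Called as higher were 480 genes, or 19.9%, and as lower 158, or 6.54%, at an adjusted p below 0.05 and a fold of FPKM + 1 above 1.2. After median-ratio scaling the split was 285 higher and 279 lower, and after upper-quartile scaling 343 higher and 225 lower, while the median log2 change over all tested genes was 0.09 as deposited and 0.01 and 0.04 after these scalings. The genotypes did not overlap, with Tip60 cKO higher, in 609 tested genes, or 25.2%. All 5 genes were in that set and among the 480, which follows from how they were selected. All 5 also passed the filter of 0.5 FPKM, Gcg solely through its level in Tip60 cKO mice.

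Crabp1 had the largest log2 change of the 2417 tested genes. Its levels were 8.71, 9.45, 10.1, 9.12, 9.09 and 13.7 FPKM in Tip60 cKO mice, against 1.34, 0.452, 0.932, 0.976, 0.903 and 0.785 FPKM in control mice. The Tip60 cKO mice thus formed a tight group of 5 with replicate 6 above it, and the lowest Tip60 cKO library was 6.52 times the highest control library. The means were 10.0 ± 1.84 FPKM in Tip60 cKO mice and 0.897 ± 0.287 FPKM in controls (SD, n = 6 each), a ratio of 11.2. The log2 change of FPKM + 1 was 2.54 (SE 0.11), which understates the ratio because the added constant weighs on the low control values. With the annotated transcript of 802 bases, these levels correspond to about 272 reads in a Tip60 cKO library and about 25.5 reads in a control library. Counting alone would give a coefficient of variation of 6.06% in Tip60 cKO mice and 19.8% in controls, whereas the observed values were 18.4% among Tip60 cKO mice and 32.0% among controls. Crabp1 lies on the plus strand of chromosome 9 (chr9:54764748-54773110, GRCm38.p6). The 150 bases before its start site (chr9:54764598-54764747, plus strand, RefSeq) are shown because they can be set beside those of Gcg, and capitals mark CpG sites, of which there are 9.
Crabp1: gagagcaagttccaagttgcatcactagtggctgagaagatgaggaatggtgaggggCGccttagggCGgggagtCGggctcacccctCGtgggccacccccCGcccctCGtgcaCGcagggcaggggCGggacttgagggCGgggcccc

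Syt9 had the log2 change next in size, and its ratio of means was above that of Crabp1. It was at 6.51, 5.47, 5.30, 7.33, 6.40 and 6.68 FPKM in Tip60 cKO mice, against 0.509, 0.538, 0.540, 0.580, 0.611 and 0.439 FPKM in control mice. Both genotypes were uniform, and the lowest Tip60 cKO library was 8.68 times the highest control library. The means were 6.28 ± 0.768 FPKM in Tip60 cKO mice and 0.536 ± 0.0595 FPKM in controls (SD, n = 6 each), a ratio of 11.7 and a log2 change of 2.24 (SE 0.06). On a transcript of 3817 bases this amounts to about 814 reads per Tip60 cKO library and 73.2 reads per control library. The coefficient of variation among controls, 11.1%, was close to the 11.7% that counting would give, and among Tip60 cKO mice it was 12.2% beside 3.50%. Syt9 spans 178308 bases on the plus strand of chromosome 7 (chr7:107370349-107548656, GRCm38.p6).

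Peg10 was the most uniform of the 5 genes in either genotype. It measured 5.31, 5.33, 4.98, 5.87, 4.91 and 5.97 FPKM in Tip60 cKO mice, against 1.01, 1.01, 0.995, 0.944, 1.01 and 0.974 FPKM in control mice. No control library strayed far from 1 FPKM, and the groups were far apart, with the lowest Tip60 cKO library 4.85 times the highest control library. The means were 5.40 ± 0.440 FPKM in Tip60 cKO mice and 0.991 ± 0.0272 FPKM in controls (SD, n = 6 each), a ratio of 5.45 and a log2 change of 1.68 (SE 0.05). The spread among controls, 2.74%, was smaller than the 6.51% that counting about 236 reads would give, and among Tip60 cKO mice it was 8.16%, beside 2.86% from counting about 1222 reads. These read numbers assume the longest annotated coding transcript, of 6667 bases. Peg10 lies on the plus strand of chromosome 6 (chr6:4747306-4760517, GRCm38.p6).

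Art3 differed from the others in its control level and in its spread. It was at 7.39, 10.9, 7.13, 5.95, 7.50 and 3.98 FPKM in Tip60 cKO mice, against 1.8, 3.15, 1.96, 2.2, 3.57 and 3.4 FPKM in control mice. The groups did not overlap, but the lowest Tip60 cKO library, replicate 6, was merely 1.11 times the highest control library. The means were 7.14 ± 2.28 FPKM in Tip60 cKO mice and 2.68 ± 0.783 FPKM in controls (SD, n = 6 each), a ratio of 2.67 and a log2 change of 1.13 (SE 0.20). The coefficient of variation was 31.8% among Tip60 cKO mice and 29.2% among controls, where counting about 389 reads per Tip60 cKO library and 153 reads per control library would give 5.07% and 8.07%. These read numbers assume the longest coding transcript, and separate mice also differ by more than counting. Art3 spans 82830 bases on the plus strand of chromosome 5 (chr5:92331799-92414628, GRCm38.p6) and has 19 annotated transcripts.

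Gcg was the gene closest to absence in control mice. It was at 1.48, 0.988, 2.79, 2.76, 1.31 and 2.15 FPKM in Tip60 cKO mice, whereas it was listed at 0 in 5 control libraries and at 0.0559 FPKM in the other, replicate 6. All 6 Tip60 cKO mice carried the transcript, at levels that differed by up to 2.83-fold between mice. The mean in Tip60 cKO mice was 1.91 ± 0.768 FPKM (SD, n = 6), and no ratio is given because a listed 0 in a table without counts can be a failed estimate. On a transcript of 1088 bases the Tip60 cKO libraries held about 37.4 to 103 reads each, and the value in control replicate 6 corresponds to about 2.20 reads. The fitted log2 change of 1.49 (SE 0.14) depends on the added constant. Gcg lies on the minus strand of chromosome 2 (chr2:62474530-62483653, GRCm38.p6). Its 150 bases before the start site (chr2:62483654-62483803, minus strand, RefSeq) are shown for their TATAAA element, whose first base is 24 bases before the start, and capitals mark this element and the 3 CpG sites.
Gcg: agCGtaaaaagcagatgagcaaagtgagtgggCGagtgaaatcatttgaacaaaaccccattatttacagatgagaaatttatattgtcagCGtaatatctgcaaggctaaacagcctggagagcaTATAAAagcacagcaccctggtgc

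**Figure D1:**
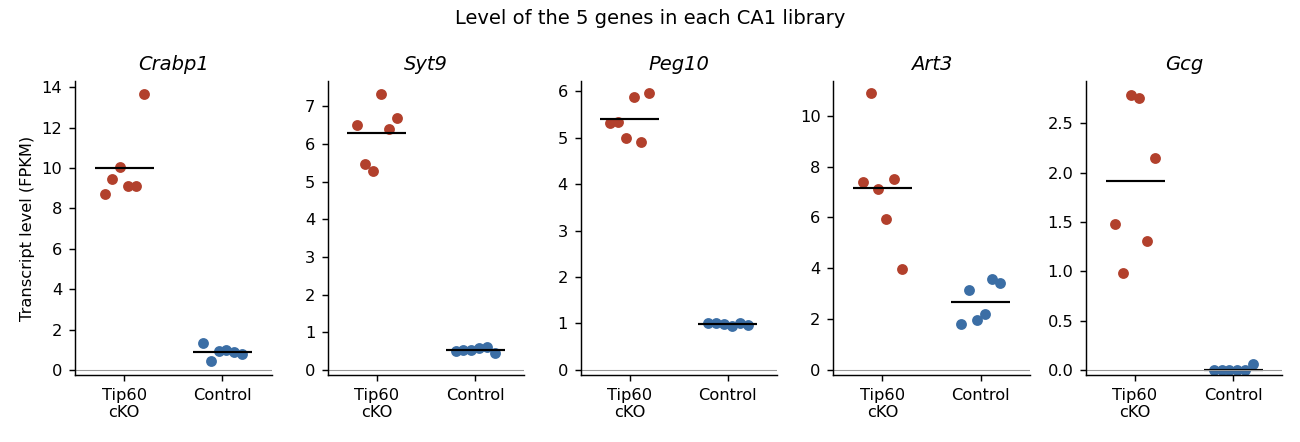
FPKM (vertical axis, 1 scale per gene) of each gene in the 6 Tip60 cKO libraries (left) and the 6 control libraries (right); points are libraries and bars are means, except for Gcg in controls, where the bar is the median. Art3 has the narrowest gap between the groups, with 3.98 FPKM in the lowest Tip60 cKO library and 3.57 FPKM in the highest control library.

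The description of the 5 genes as near-silent before Tip60 loss was then checked against their control levels. Gcg fits it, being listed at 0 in 5 of 6 control libraries. Syt9, Crabp1 and Peg10 were low but measured in every control library, at 0.536, 0.897 and 0.991 FPKM, and 68.8%, 72.5% and 73.1% of the 7259 genes had a lower control mean. Art3 was not near-silent, since its control mean of 2.68 FPKM was above that of 78.7% of these genes. Among the 2417 tested genes alone, which leave out most near-0 genes, the share with a lower control mean was 6.33% for Syt9, 17.4% for Crabp1, 19.3% for Peg10 and 36.2% for Art3. In Tip60 cKO mice the order of levels was Crabp1, Art3, Syt9, Peg10 and Gcg. In controls it was Art3, Peg10, Crabp1, Syt9 and Gcg. In Tip60 cKO mice the ranges of the neighbours Crabp1 and Art3, Art3 and Syt9, and Syt9 and Peg10 overlapped, and in controls those of Peg10 and Crabp1, and of Crabp1 and Syt9. On that same base of tested genes, the Tip60 cKO mean was above that of 60.6% for Crabp1, 53.4% for Art3, 50.6% for Syt9, 47.2% for Peg10 and 28.3% for Gcg.

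**Figure D2:**
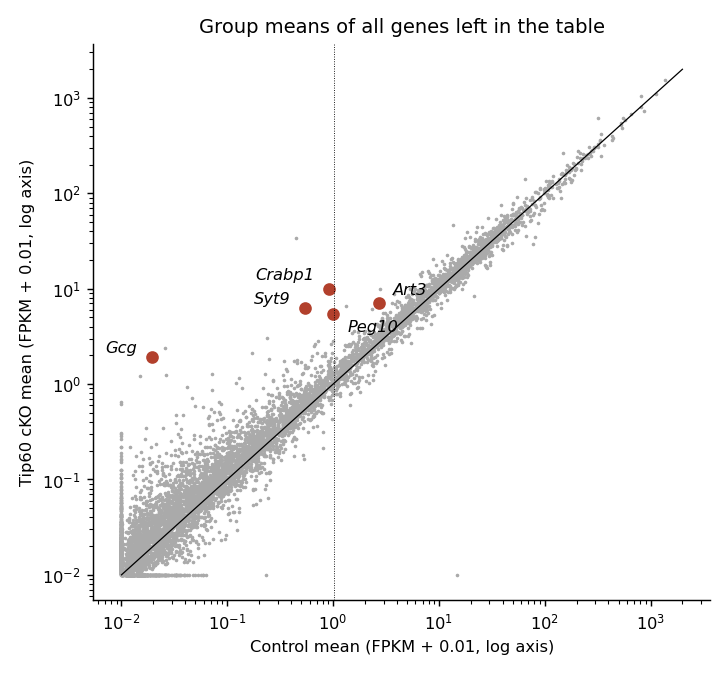
Mean FPKM + 0.01 in Tip60 cKO mice (vertical log axis) against the mean in control mice (horizontal log axis) for the 7259 genes; the 5 genes are in red, the diagonal marks equal means and the dotted line 1 FPKM in controls. Gcg lies at the far left, and Art3 lies right of the dotted line, at 2.68 FPKM.

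To place the 5 genes among others with low control levels, all 5316 genes with a control mean below 1 FPKM were ranked. Of these, 123 had a Tip60 cKO mean of at least 1 FPKM and 4 reached a mean of at least 5 FPKM, namely Ttr, Crabp1, Syt9 and Peg10. Ttr, the thyroxine carrier made by the choroid plexus, owed this to 1 library, for Tip60 cKO replicate 1 held 201 FPKM and no other library more than 0.911 FPKM. Within these 5316 genes, Crabp1, Syt9 and Peg10 thus had the largest gains that were shared by all Tip60 cKO mice, at 9.12, 5.75 and 4.40 FPKM. This place follows from how they were selected. Genes with a higher control mean could gain more, such as Crhbp, at 46.3 FPKM in Tip60 cKO mice and 13.7 FPKM in controls. By the ratio of means instead, Syt9 ranked 9th, Crabp1 10th and Peg10 15th among the 123, predicted genes included. Gcg and other genes with control libraries listed at 0 were counted above them. The ratio of Gcg is not printed because it rests on those listed 0 values.

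With predicted and RIKEN genes left out, several of the 10 genes with the largest ratios were uneven between mice. Serpina3m, a serine protease inhibitor from a cluster of near-identical genes whose reads may be split between copies, was at 1.44 to 2.07 FPKM in 4 Tip60 cKO libraries and at 0.00375 and 0.0585 FPKM in the others. Oca2, a transporter of melanosomes, ranged from 1.13 to 4.53 FPKM in Tip60 cKO mice and from 0.1 to 0.6 FPKM in controls. Pde6b, a phosphodiesterase subunit of rod photoreceptors, ranged from 0.710 to 2.13 FPKM in Tip60 cKO mice and from 0.0456 to 0.0825 FPKM in controls. C1qtnf9, a secreted relative of adiponectin, and Myh3, an embryonic myosin heavy chain, each had 1 Tip60 cKO library far above the rest, at 8.23 and 3.30 FPKM. Lce1i, of the cornified envelope family, resembled Gcg, with 0.920 to 1.47 FPKM in Tip60 cKO mice and 4 control libraries listed at 0.

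**Figure D3:**
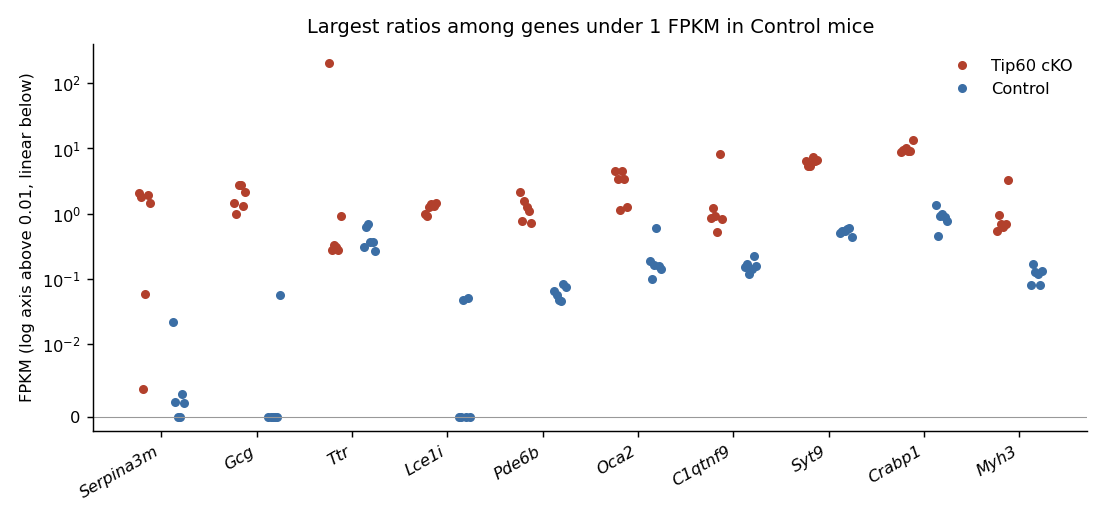
FPKM (vertical axis, log above 0.01 and linear below) in each Tip60 cKO library (red, left) and control library (blue, right) for the 10 genes with the largest ratio of means among those above 0 and below 1 FPKM in controls, predicted and RIKEN genes left out. Crabp1 lies between 8.71 and 13.7 FPKM and Syt9 between 5.30 and 7.33 FPKM in Tip60 cKO mice, and Ttr is high in 1 library.

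Whether the 5 genes varied together from mouse to mouse was examined within the Tip60 cKO group, a comparison that the selection did not use. Over the 10 pairs, Pearson's r of log2(FPKM + 0.1) ranged from -0.74 to 0.64 (n = 6; smallest exact two-sided permutation p = 0.14; smallest adjusted p = 0.43 over 10 pairs), so no pair passed. The 4 pairs with Art3 were all negative, from -0.74 with Crabp1 to -0.59 with Syt9, and the 6 pairs without Art3 were all positive, from 0.04 to 0.64. Art3 and Crabp1 had r = -0.74 (n = 6; exact permutation p = 0.22; adjusted p = 0.43) and a Spearman's rho of -0.49 (exact permutation p = 0.36; adjusted p = 0.59). Their relation rested on Tip60 cKO replicate 6, which had the highest Crabp1 and the lowest Art3, for r was 0.16 without it and 0.57 without the 2 libraries farthest from the Crabp1 median. Art3 and Gcg had r = -0.65 (n = 6; exact permutation p = 0.14; adjusted p = 0.43) and rho = -0.77 (exact permutation p = 0.10; adjusted p = 0.59), and r was -0.72 without the 2 libraries farthest from the Art3 median. Syt9 and Peg10, the pair with the highest r, had r = 0.64 (n = 6; exact permutation p = 0.16; adjusted p = 0.43) and rho = 0.66 (exact permutation p = 0.18; adjusted p = 0.59), with r = 0.72 without the 2 libraries farthest from the Syt9 median. Among the 6 control mice, r was -0.64 for Art3 and Crabp1 (n = 6; exact permutation p = 0.15; adjusted p = 0.88 over 6 pairs) and 0.08 for Syt9 and Peg10 (n = 6; exact permutation p = 0.79; adjusted p = 0.96).

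**Figure D4:**
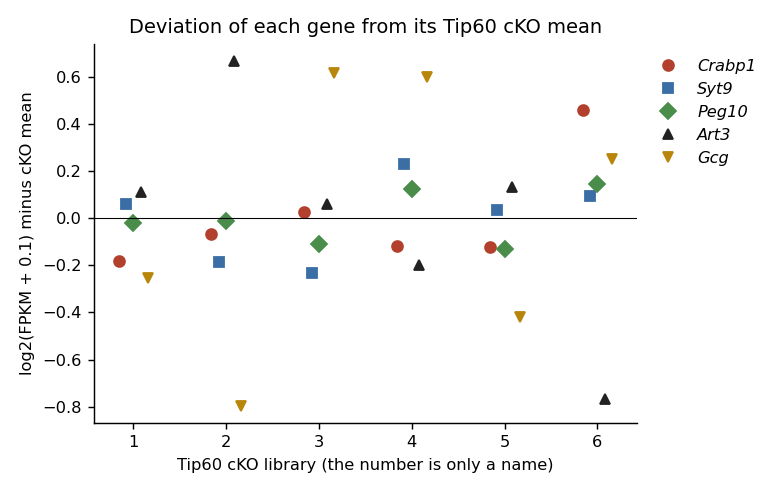
Deviation of log2(FPKM + 0.1) from the mean over Tip60 cKO mice (vertical axis) for the 5 genes in each of the 6 Tip60 cKO libraries (horizontal axis). In replicate 6 Crabp1 is at its highest and Art3 at its lowest, and Art3 and Gcg have the widest spread.

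The tested genes most like each of the 5 were sought by Pearson's r of log2(FPKM + 0.1) over the 12 libraries, as a description. Because the libraries share 2 genotypes and each of these genes differs between them, r is high for any gene that also differs, and r of the deviations from the genotype means is given beside it. The genes were picked as the highest among all tested genes by the first r, which also holds the deviations. The second r is therefore raised by the picking and is no separate support. For Crabp1 these were Egr2, an activity-induced transcription factor (r = 0.985; 0.55 for the deviations), Avpr1b, a vasopressin receptor (0.985; 0.70), and Hspa5, a chaperone of the endoplasmic reticulum (0.983; 0.50). For Syt9 they were Crhbp, which binds corticotropin-releasing hormone (0.995; 0.43), Pcx, or pyruvate carboxylase (0.994; 0.41), and Ift122, of intraflagellar transport (0.993; 0.40). For Peg10 they were Larp7, which binds the 7SK RNA (0.995; 0.49), Crhbp (0.994; 0.21) and Ift122 (0.994; 0.45). For Gcg they were Lce1i (0.98; 0.33), Crhbp (0.98; 0.19) and D10Wsu102e (0.975; 0.28). Art3 had lower values over all libraries and higher ones for the deviations, with Yeats4, a subunit of the TIP60 complex that reads acetylated histones (0.945; 0.86), Cisd1, a mitochondrial iron-sulfur protein (0.931; 0.74), and Gpr151, an orphan receptor (0.931; 0.70). With its wide spread and narrow gap, the picks for Art3 depend more on the deviations, and a link to the TIP60 complex was not tested. Yeats4 was at 17.4 ± 0.743 FPKM in Tip60 cKO mice and 12.8 ± 0.622 FPKM in controls (SD, n = 6 each), and Avpr1b at 1.66 ± 0.310 FPKM in Tip60 cKO mice and 0.445 ± 0.0825 FPKM in controls.

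The pathway and family of each gene were examined next, with the 19.9% higher and 6.54% lower calls among all tested genes as background. Of 20 retinoic acid genes present, 3 were tested, and none passed both thresholds in either direction (median log2 change 0.20, against 0.09 over all tested genes). The retinoid X receptor Rxrg was at 0.756 ± 0.105 FPKM in Tip60 cKO mice and 0.475 ± 0.119 FPKM in controls. The ratio of these means was 1.59, with an adjusted p of 0.00195 by limma. Its log2 change of FPKM + 1, 0.25, was within 1.2-fold because the added constant weighs on values this low. Aldh1a2, which makes retinoic acid, was at 0.734 ± 0.173 FPKM in Tip60 cKO mice and 0.511 ± 0.114 FPKM in controls (log2 change 0.20; adjusted p = 0.030), and Rdh14, a retinol dehydrogenase, at 15.92 ± 0.958 FPKM in Tip60 cKO mice and 15.95 ± 0.888 FPKM in controls (log2 change -0.0028; adjusted p = 0.96). Crabp2, the closest relative of Crabp1, was too low to be tested and did not differ beyond its spread, at 0.305 ± 0.0841 FPKM in Tip60 cKO mice and 0.286 ± 0.0764 FPKM in controls (SD, n = 6 each). Of the wider family of intracellular lipid binding proteins 9 were in the table and 1 was tested. This was Fabp3, which carries fatty acids, and it fell to 34.8 ± 3.8 FPKM in Tip60 cKO mice, against 81.2 ± 3.79 FPKM in controls (log2 change -1.20; SE 0.06; adjusted p = 1.07e-09). Pmp2, a lipid binding protein of myelin, was below the filter, at 0.334 ± 0.138 FPKM in Tip60 cKO mice and 0.0147 ± 0.0178 FPKM in controls.

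For Syt9, 6 of 27 other listed synaptotagmins and synaptotagmin-like genes were in the table and 2 were tested, of which none passed. Syt6 was at 1.52 ± 0.396 FPKM in Tip60 cKO mice and 1.23 ± 0.0794 FPKM in controls (adjusted p = 0.11), and Syt15 at 0.824 ± 0.126 FPKM in Tip60 cKO mice and 0.754 ± 0.0972 FPKM in controls (adjusted p = 0.42; SD, n = 6 each). Of 5 tested proteins of dense core vesicles, the organelles from which peptides are released, 3 rose and 1 fell. Chga, a granin of the vesicle core, rose to 67.8 ± 4.36 FPKM in Tip60 cKO mice, against 49.5 ± 1.6 FPKM in controls (log2 change 0.44; SE 0.04; adjusted p = 4.64e-07). Vamp1, a vesicle SNARE, was at 40.3 ± 2.68 FPKM in Tip60 cKO mice and 30.8 ± 1.52 FPKM in controls (log2 change 0.38), and the carboxypeptidase Cpd at 13.5 ± 0.963 FPKM in Tip60 cKO mice and 11.04 ± 0.531 FPKM in controls (log2 change 0.26), but both came within 1.2-fold after median-ratio scaling (0.26 and 0.15), which left 1 gene higher. Cpd also came within 1.2-fold after upper-quartile scaling (0.20) and without Tip60 cKO replicate 1 (0.25), 4 (0.24) or 6 (0.25) or control replicate 2 (0.25), 3 (0.24) or 5 (0.26). Pcsk1n, an inhibitor of a prohormone convertase, fell to 69.1 ± 10.9 FPKM in Tip60 cKO mice, against 94.5 ± 19.2 FPKM in controls (log2 change -0.44; SE 0.14; adjusted p = 0.017).

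For Peg10, 12 other imprinted genes were tested, of which 3 rose and none fell (median log2 change 0.19), and with median-ratio scaling the calls were 2 higher and 2 lower. Plagl1, a zinc finger factor, rose to 2.54 ± 0.229 FPKM in Tip60 cKO mice, against 1.28 ± 0.113 FPKM in controls (log2 change 0.64; SE 0.05; adjusted p = 1.07e-07). Commd1, which acts in copper transport, rose to 27.3 ± 1.89 FPKM in Tip60 cKO mice, against 17.1 ± 1.01 FPKM in controls (log2 change 0.65; SE 0.05; adjusted p = 4.95e-08). Ddc, the decarboxylase that makes dopamine and serotonin, was at 3.14 ± 0.583 FPKM in Tip60 cKO mice and 2.40 ± 0.401 FPKM in controls (log2 change 0.28; adjusted p = 0.022), a call lost after both scalings and without Tip60 cKO replicate 2 (0.22) or control replicate 1 (0.25) or 3 (0.23) in log2 change, and with no filter on low values (adjusted p = 0.0615). Of 6 tested genes derived from retrotransposons or transposons other than Peg10, 1 rose and 1 fell. Zcchc5 rose to 0.883 ± 0.145 FPKM in Tip60 cKO mice, against 0.528 ± 0.129 FPKM in controls (log2 change 0.30; adjusted p = 0.00112), a ratio of 1.67. Its log2 change of FPKM + 1 came within 1.2-fold after median-ratio scaling (0.25). Pnma1 fell to 0.781 ± 0.129 FPKM in Tip60 cKO mice, against 1.43 ± 0.155 FPKM in controls (log2 change -0.45; SE 0.06; adjusted p = 1.30e-05).

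For Art3, 8 other ADP-ribosylation genes were in the table. The other ectoenzymes Art1, Art4 and Art5 were all below 0.03 FPKM in either genotype, and 2 genes of the group were tested. Tiparp, a nuclear mono-ADP-ribosyltransferase, rose to 4.92 ± 0.246 FPKM in Tip60 cKO mice, against 3.47 ± 0.345 FPKM in controls (log2 change 0.41; SE 0.05; adjusted p = 1.20e-05). Parp4 was at 1.24 ± 0.137 FPKM in Tip60 cKO mice and 0.992 ± 0.0939 FPKM in controls, a ratio of 1.25. Its log2 change of FPKM + 1 was 0.17, within 1.2-fold on that scale (adjusted p = 0.011).

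For Gcg, none of 9 other genes of the glucagon peptide family, its receptors and its degrading enzyme that were in the table reached the filter. The related peptide gene Ghrh was at 0.243 ± 0.129 FPKM in Tip60 cKO mice and 0.0913 ± 0.0914 FPKM in controls, and Gip was detected in neither genotype above 0.01 FPKM on average. The glucagon receptor Gcgr was at 0.0229 ± 0.0125 FPKM in Tip60 cKO mice and 0.0343 ± 0.0148 FPKM in controls. Glp1r, the receptor of a glucagon-like peptide, was at 0.0758 ± 0.0874 FPKM in Tip60 cKO mice and 0.0453 ± 0.0469 FPKM in controls. Of the endocrine islet genes examined 14 were in the table and 2 were tested. Islet-defining Ins2, Pdx1, Isl1, Pax4, Neurog3 and Nkx6-1 averaged at most 0.0304 FPKM in both genotypes. Of the tested ones Chga rose, as above, and the other was Ttr. Of 10 other tested neuropeptide genes and their binding protein, 6 rose and none fell under the values as deposited and under both scalings (median log2 change 0.61). Crhbp, for example, rose to 46.3 ± 2.91 FPKM in Tip60 cKO mice, against 13.7 ± 0.902 FPKM in controls (log2 change 1.69; SE 0.05; adjusted p = 1.03e-12), and Cort, the precursor of cortistatin, to 10.0 ± 1.59 FPKM in Tip60 cKO mice, against 2.76 ± 0.551 FPKM in controls (log2 change 1.55; SE 0.11; adjusted p = 7.10e-08).

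Of 11 CA1 pyramidal neuron markers 2 were in the table, Pou3f1 and Rprm. Their sum was 54.5 to 71.3 FPKM in Tip60 cKO mice and 30.4 to 38.3 FPKM in controls. Most of it was Pou3f1, with means of 55.0 FPKM in Tip60 cKO mice and 28.9 FPKM in controls. Both genes were called higher, also after either scaling. Because both differed between genotypes, their sum cannot check the labelled tissue or the amount of CA1 neurons. Markers of other cells that the dissection could hold were summed in the same way. Calls among them stand beside the 19.9% higher and 6.54% lower among all tested genes. The 5 interneuron markers in the table summed to 756 to 823 FPKM in Tip60 cKO mice and 379 to 443 FPKM in controls, without overlap, and 3 of the 4 tested rose, of which 2 did after either scaling. Most of this sum was Sst, with means of 616 FPKM in Tip60 cKO mice and 317 FPKM in controls, and Npy, with 140 and 64.6 FPKM. Slc32a1 was at 24.5 and 19.6 FPKM, Calb2 at 3.15 and 3.13 FPKM and Nkx2-1 at 0.536 and 0.454 FPKM. The 4 dentate granule cell markers summed to 16.1 to 28.9 FPKM in Tip60 cKO mice and 24.6 to 45.8 FPKM in controls. The 2 CA2 and CA3 markers in the table summed to 12.2 to 20.0 FPKM in Tip60 cKO mice and 18.2 to 27.6 FPKM in controls. Of these, 1 was called lower as deposited and 2 after either scaling. The astrocyte markers summed to 8.02 to 10.1 FPKM in Tip60 cKO mice and 7.72 to 9.52 FPKM in controls, and the oligodendrocyte markers to 156 to 176 FPKM in Tip60 cKO mice and 119 to 164 FPKM in controls. The microglia markers summed to 118 to 153 FPKM in Tip60 cKO mice and 107 to 125 FPKM in controls, with 3 of 6 tested higher and 1 lower. After either scaling 2 of these microglia markers were higher and 2 lower. For meninges and fibroblasts the sums were 30.3 to 40.9 and 21.2 to 32.6 FPKM, with 2 of 6 tested higher. Ependymal markers summed to 4.91 to 10.6 and 2.45 to 7.49 FPKM, with 2 of 4 tested higher, Dynlrb2 and Fam183b. Both calls held after either scaling but were lost without any of several single libraries. Without Tip60 cKO replicate 1, for example, the limma adjusted p was 0.0689 for Dynlrb2 and 0.0608 for Fam183b. Endothelial and mural markers summed to 57.5 to 71.6 and 52.9 to 60.1 FPKM. Progenitor markers summed to 55.6 to 72.3 and 64.3 to 70.9 FPKM. The 8 choroid plexus markers summed to 206 FPKM in Tip60 cKO replicate 1, nearly all of it Ttr, and to at most 1.9 FPKM in any other library. Crabp1 was at its lowest Tip60 cKO value in that library, at 8.71 FPKM, and Gcg was at 1.48 FPKM. Without that library the log2 changes of the 5 genes kept their direction. The part of these cell types in the levels of the 5 genes was not tested.

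The genes next to each of the 5 on the chromosome were then examined, taking the 5 on each side in RefSeq. Of 50 such genes 7 were in the table and 1 was tested by limma, so the others were compared by an exact two-sided permutation test, which was added after their values were seen. No neighbour of Crabp1 or Peg10 was among the 7, and that of Syt9, Rbmxl2, averaged 0.0348 FPKM in Tip60 cKO mice and 0.0174 FPKM in controls. Near Gcg lies Fap, a membrane peptidase, which was higher at 0.276 ± 0.0525 FPKM in Tip60 cKO mice, against 0.0979 ± 0.0216 FPKM in controls (SD, n = 6 each; exact permutation p = 0.0022, the smallest this design allows; adjusted p = 0.015 over 7 genes). Its Tip60 cKO libraries ran from 0.228 to 0.367 FPKM and its control libraries from 0.0691 to 0.134 FPKM. Of all tested genes, a set that leaves out genes as low as Fap, 25.2% also had every Tip60 cKO library above every control library. A link between Fap and Gcg was not tested. Dpp4, on the other side, which cleaves glucagon-like peptides, was at 0.289 ± 0.142 FPKM in Tip60 cKO mice and 0.218 ± 0.0981 FPKM in controls (n = 6 each; exact permutation p = 0.36; adjusted p = 0.42), and Ifih1, a sensor of viral RNA, was at 0.799 ± 0.162 FPKM in Tip60 cKO mice and 0.643 ± 0.144 FPKM in controls (limma adjusted p = 0.12).

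Within the span of Art3, on the opposite strand, lie the chemokine gene Cxcl10 and the pseudogene Cxcl11. Cxcl10 was higher at 0.604 ± 0.342 FPKM in Tip60 cKO mice, against 0.0765 ± 0.0555 FPKM in controls (SD, n = 6 each; exact permutation p = 0.0065; adjusted p = 0.023 over 7 genes), although its Tip60 cKO libraries, from 0.0938 to 0.95 FPKM, overlapped the control libraries, from 0.0266 to 0.166 FPKM. Among all tested genes 19.9% were called higher by limma, and a link between Cxcl10 and Art3 was not tested. Cxcl11 was at 0.0390 ± 0.0319 FPKM in Tip60 cKO mice and 0.0407 ± 0.0363 FPKM in controls (n = 6 each; exact permutation p = 0.94; adjusted p = 0.94). Cxcl9, next to Art3, was at 0.0786 ± 0.0438 FPKM in Tip60 cKO mice and 0.0458 ± 0.0280 FPKM in controls. No source used here says whether the libraries kept the strand, so reads of overlapping stretches of Art3 and these genes cannot be told apart.

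Sequence at the start sites was compared as a further property that the selection did not use. RefSeq windows of 300 bases, from 250 before to 50 after the start, were found for 4 of the 5 genes, 6 windows in all because Art3 has 3. Syt9 had the richest window, with 79.3% GC, more than 98.7% of all 32851 windows, and 49 CpG sites, or 1.04 times the number its base composition would give. Crabp1 followed with 65.0% GC and 17 CpG sites, or 0.54 times that number. Gcg had 47.0% GC and 7 CpG sites (0.42), and the 3 windows of Art3 had 37.3% to 52.0% GC and 4 to 7 CpG sites (0.20 to 0.48), where the median window had 52.7% GC and a CpG ratio of 0.38. The 4 genes therefore covered both the CpG-poor and the CpG-rich ranges of promoters.

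Of 6 motifs searched on both strands, TATAAA alone was found. It occurred in the window of Gcg, on the coding strand at the place shown above and once on the other strand, and in 2 of the 3 windows of Art3, against 13.6% of all windows. In 1 of these Art3 windows it began 30 bases before the start. The letters TGACGTCA, the cyclic AMP response element, occurred in 1.79% of all windows, CACGTG in 7.15%, TTTCCCGC in 1.07%, TTTGGCGC in 0.514%, and a direct repeat of AGGTCA with a spacer of 5 bases, of the kind bound by retinoic acid receptors, in 3 of 32851. None of these was in a window of the 4 genes.

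**Figure D5:**
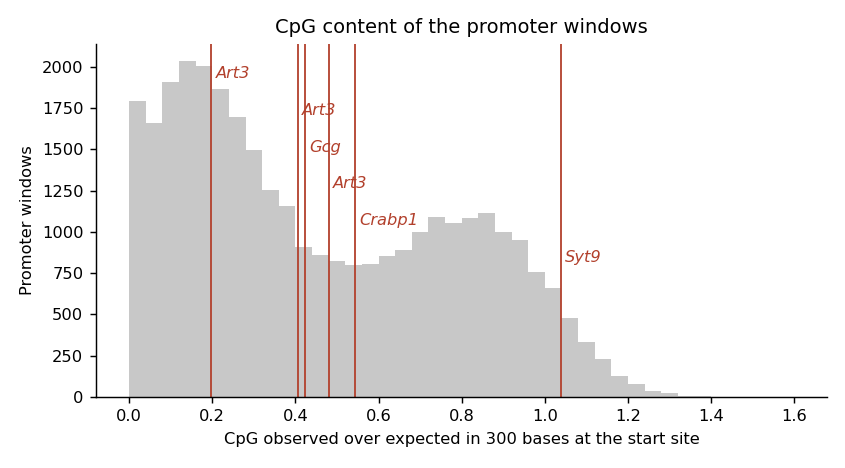
Number of RefSeq promoter windows (vertical axis) by CpG sites observed over expected in the 300 bases at the start site (horizontal axis); red lines mark the 6 windows of Syt9, Crabp1, Gcg and Art3. Syt9 lies at 1.04, in the CpG-rich range, and the other windows lie between 0.20 and 0.54.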

How the data were processed

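The authors deposited 1 value per gene row and library for CA1 RNA-Seq of 6 Tip60 cKO and 6 control mice. The table is titled as read counts, but its values are not whole numbers and their smallest steps shrink with transcript length, so the deposited values were taken as FPKM. Libraries were made with a TruSeq kit from total RNA purified by phenol/chloroform. Tools named in the submitters' processing notes are TopHat2 2.0.8 on mm9, bedtools 2.16.2, CASAVA 1.8.2 and FastQC 0.10.0; the FPKM program was not given in the sources used here. Replicate numbers only name libraries, and separate mice are the replicates.

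From 10383 rows, 100 exact repeats were dropped and rows sharing a symbol were added up. Small RNA genes (531), genes at 0 throughout (2414) and genes with isolated 0 values, which can be failed estimates (41), were left out. Having seen their values, 4 genes with 0 values, Gcg among them, were kept because 1 genotype was near 0. The filter required a mean of 0.5 FPKM, and log2(FPKM + 1) was fitted by limma 3.58.1 (R 4.3.3) with trend and robust estimates and Benjamini-Hochberg adjustment, a fit tested on simulated data. Correlations and permutation tests used SciPy 1.17.1. Depth was estimated from the FPKM of 1 read in 2017 genes with 1 GENCODE transcript; read numbers are approximate, since they take the longest coding transcript. Alternatives were a pseudocount of 0.1, median-ratio and upper-quartile scaling, other filters and each library left out.

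The 5 genes and all gene lists were chosen with earlier results of these data known. Named besides the 5 were up to 4 called genes per list and close family members, the 3 genes most like each, the 10 largest ratios among genes low in controls, and neighbours, with predicted and RIKEN genes left out. Gene positions, neighbours and promoter windows come from RefSeq on GRCm38.p6, a newer build than mm9, and served no lookup in the table other than by symbol. Protein sequences were not used here, and 1 gene of the endocrine islet list is not reported here.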

Additional observations from a re-analysis of the deposited data

Results flagged for a closer look

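Among 100 groups of 6 libraries examined, 9 had a library set so far from the nearest other one, relative to the range of the group, that it passed Dixon's 95% limit, where chance gives about 5% of groups. That share holds for groups not picked by their values. Here some genes were named for a ratio of means, which 1 high library can raise. In Gcg controls, 1 value above 0 passes the limit whatever its size. The 9 groups therefore cannot be weighed against the 5%. Crabp1 was 13.7 FPKM in Tip60 cKO replicate 6, with the next library at 10.1 FPKM. Gcg was 0.0559 FPKM in control replicate 6, with the other controls listed at 0. Ttr was 201 FPKM in Tip60 cKO replicate 1, with the next at 0.911 FPKM. C1qtnf9 was 8.23 FPKM in Tip60 cKO replicate 5, with the next at 1.24 FPKM, and Myh3 was 3.30 FPKM in Tip60 cKO replicate 6, with the next at 0.949 FPKM. Among controls, Oca2 was 0.6003 FPKM in replicate 4, Ifih1 0.917 FPKM in replicate 4 and Serpina3m 0.0221 FPKM in replicate 1, each above the rest. Slc32a1, the vesicular GABA transporter, was lowest in control replicate 1, at 18.5 FPKM, with the next at 19.6 FPKM.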

How the results depend on the processing

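The log2 changes of the 5 genes kept their direction in all 84 values computed under the alternatives. Their size moved with the pseudocount: with 0.1 FPKM they were 3.38 for Crabp1, 3.32 for Syt9, 2.33 for Peg10, 1.37 for Art3 and 4.13 for Gcg. With single libraries left out they ranged from 2.45 to 2.60 for Crabp1, 2.20 to 2.28 for Syt9, 1.66 to 1.70 for Peg10, 1.01 to 1.26 for Art3 and 1.40 to 1.59 for Gcg. Gcg could not be fitted with a mean of at least 1 FPKM required. Over all tested genes, median-ratio scaling moved the calls to 285 higher and 279 lower, and single libraries left out gave 456 to 504 higher and 152 to 178 lower.

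Correlations between pairs among Tip60 cKO mice depended on single libraries. With each left out, r ranged from -0.75 to 0.26 for Crabp1 and Syt9, from -0.34 to 0.78 for Crabp1 and Peg10, from -0.90 to 0.16 for Crabp1 and Art3 and from -0.13 to 0.93 for Syt9 and Gcg. After median-ratio scaling r was -0.0142 for Crabp1 and Syt9. Among control mice, chosen after seeing the data, r was -0.0528 for Crabp1 and Peg10 and 0.10 for Peg10 and Art3. No paired analysis was possible because the labels give no replicate numbers. At 32.0 to 38.2 M reads, values below about 0.5 FPKM rest on few reads where the transcript is short. Crabp1 at 0.452 FPKM in control replicate 2 was about 13.4 reads, and Syt9 at 0.439 FPKM in control replicate 6 about 60.6 reads. With 6 mice per genotype, correlations are imprecise.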
